A study of Solanum lycopersicum with 12 samples.

Results

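The Cel genes of tomato encode endo-β-1,4-glucanases, enzymes that cut internal β-1,4 links in glucan chains of the plant cell wall. The members were taken as the probe sets whose gene symbol in the array annotation is Cel, in any letter case, followed by a number. This rule gave 6 of the 10209 probe sets on the Affymetrix tomato array, 1 for each of Cel1, Cel2, Cel3, cel5, cel7 and CEL8. Of these, 5 passed the filter, a group mean over 3.2 log2 units in any of the 4 groups, and were tested among the 7779 probe sets that passed. The probe set of cel5 did not pass. All 6 genes were found with the same symbol in the RefSeq gene table, and none had a further probe set with its symbol alone. Probe sets with no symbol or with several were not searched for these genes.

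Leaves of the tomato cultivar Ailsa Craig were compared in 4 groups, all from glasshouse plants aged 4 weeks. AS plants were sprayed with Alethea and watered with 100 mM NaCl, AW plants were sprayed with Alethea and given water, WS plants were sprayed with water and given 100 mM NaCl, and WW plants had water at both steps. Alethea is a plant activator preparation containing potassium dihydrojasmonate, sodium benzoate and L-arginine. The formulation used also held plant nutrients, namely zinc, iron, manganese, copper, magnesium oxide and boron, which the water spray of WS and WW lacked. The spray was given 48 h and the salt 24 h before the third true leaves were frozen, and each array held RNA pooled from 3 plants. Each group was sampled on 3 separate occasions, which gives 12 arrays. The replicate number in the sample titles was taken as the occasion. The number of arrays limits the precision, and, with the occasion as a block, p-values refer to how the differences between pooled samples varied over the occasions.

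Plant endoglucanases of this family act on cellulose-like and other β-glucans while walls expand, loosen or come apart. Secreted members in tomato are best known from abscission zones and ripening fruit, where walls are taken down, and other members belong to growing tissue. A membrane-anchored class, typified by KORRIGAN in Arabidopsis, takes part in the making of cellulose. RNA came from whole leaves, so fewer cells of a type and less RNA per cell cannot be told apart.

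The RNA was that of leaves by its light-reaction transcripts, with 7 probe sets for chlorophyll-binding and photosystem proteins between 14.5 and 15.3 log2 units in every array. Of 11 probe sets in the list of fruit and abscission zone markers, 9 were below 3.2 in all 12 arrays. They included the abscission polygalacturonases TAPG1, TAPG2 and TAPG4, the fruit polygalacturonase PG2, the ripening genes E8 and 2A11 and the ripening regulator RIN. The remaining 2 probe sets were for the carotenoid enzyme Psy1, at 7.77 to 11.996. Another Psy1 probe set was among the 9 below 3.2, so the probe sets of this gene disagreed. The log2 of the summed signals of the list was 11.98 to 12.8 in AS, 11.5 to 12.5 in AW, 11.3 to 12.2 in WS and 11.1 to 12.2 in WW. These sums came almost wholly from the 2 high Psy1 probe sets. They therefore cannot show whether the groups differed in fruit or abscission zone RNA. RSI-1, listed by symbol as a root gene, lay at 8.84 to 11.3, and LEA14, listed by symbol as a seed gene, at 9.54 to 11.3. Both were above 3.2 in all 12 arrays, and whether they mark RNA of those organs here was not tested. No pollen marker was found by symbol. Array medians were 7.66 to 7.76, and arrays correlated with r of 0.964 to 0.997.

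Cel2, measured by Les.3666.1.S1_at, encodes a secreted endoglucanase known from abscission zones and softening fruit. It was the Cel probe set that passed the test between treatments, and it did so for salt given without Alethea. Its log2 values on occasions 1, 2 and 3 were 8.64, 7.33 and 7.34 in AS, 8.44, 7.44 and 7.25 in AW and 9.13, 7.78 and 7.34 in WS. In WW they were 7.75, 6.54 and 6.48. On each occasion the WW array was the lowest and the 3 treated arrays lay above it, while the ranges of the groups over all occasions overlapped. The share of all probe sets with WW lowest on every occasion was not counted. Group means were 7.77 ± 0.75 in AS, 7.71 ± 0.64 in AW, 8.08 ± 0.93 in WS and 6.93 ± 0.72 in WW (SD, n = 3 each), and the array of occasion 1 was the highest in each group.

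Cel2 rose by 1.16 log2 units in WS against WW (SE 0.13, 95% interval 0.86 to 1.45), or 2.23-fold. The change was 1.37, 1.24 and 0.86 units on occasions 1, 2 and 3, and 17.4% of all probe sets were likewise above 0 each time. Its adjusted p was 0.0415 with limma and Benjamini-Hochberg adjustment over 7779 probe sets. It had the smallest p of all probe sets tested. In this comparison 1 of 5 Cel probe sets was called, against 0.0386% of all probe sets, or 3. The call was near the threshold and did not hold in any of the 15 fits that left out an array or an occasion, where adjusted p was 0.0519 to 0.999 and the change 1.04 to 1.31. In those fits, 0 to 2 probe sets were called in all. Fitted without the occasion as a block, the adjusted p was 0.99997. Without occasion 1, 2 or 3 it was 0.356, 0.190 or 0.999. Rank Product, the test of the study's methods, gave Cel2 an estimated false discovery rate of 0.0519. It called 14 of all probe sets higher and 13 lower.

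With Alethea and no salt, Cel2 was 0.78 log2 units higher in AW than in WW (SE 0.13, 95% interval 0.48 to 1.08), with 0.68, 0.89 and 0.76 on the 3 occasions. Of all probe sets, 16.5% were above 0 on each occasion in this comparison. This difference did not pass (adjusted p = 0.150), and nor did that of any other probe set (0% called). At an unadjusted p under 0.05, 1 of 5 Cel probe sets and 12.7% of all probe sets were found. As a measure of RNA quality, the 3′ probe set of actin exceeded the 5′ one by 0.94 to 1.53 log2 units in AW and by 0.59 to 0.85 in WW, and the part of this in the Cel2 difference was not tested. For WS against WW, the same actin values were 0.54 to 0.86 in WS and 0.59 to 0.85 in WW.

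In leaves that had received Alethea, salt gave no detectable difference in Cel2. AS and AW differed by 0.07 log2 units (95% interval -0.23 to 0.36, adjusted p = 0.994), with 0.20, -0.10 and 0.10 on occasions 1, 2 and 3. None of the 5 Cel probe sets was found here even at an unadjusted p under 0.05, against 4.97% of all probe sets, and the adjusted test called 0%. Under salt, Cel2 was 0.31 log2 units lower in AS than in WS (95% interval -0.61 to -0.01, adjusted p = 0.196), with -0.49, -0.45 and 0.00 by occasion. The excess of 3′ over 5′ actin signal was 1.25 to 1.72 in AS and 0.54 to 0.86 in WS. Its part in AS minus WS was not tested for any Cel probe set. The comparison of AS with WS called no probe set either (0%), while 1 of 5 Cel probe sets and 23.4% of all had an unadjusted p under 0.05.

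The interaction, that is the salt difference with Alethea minus the salt difference without it, was -1.09 log2 units for Cel2 (SE 0.18, 95% interval -1.51 to -0.67). It was below 0 on every occasion, at -1.17, -1.35 and -0.76, as were 11.7% of all probe sets. Its unadjusted p of 0.000264 was the smallest of 7779, but the adjusted p was 0.9999 and no interaction passed for any probe set (0% called, 2.17% at an unadjusted p under 0.05). The dependence of the salt difference on Alethea was therefore not called. The excess of 3′ over 5′ actin signal changed with salt by 0.22 (SD 0.48) after Alethea and by -0.11 (SD 0.18) without it. Its part in the interaction was not tested. For the other 4 members the interaction lay between -0.66 for Cel1 and 0.00 for Cel3, each with an adjusted p of 0.9999. With both treatments together, AS exceeded WW by 0.88, 0.79 and 0.86 on the 3 occasions, a mean of 0.84 log2 units. No test was fitted for it, and the share of all probe sets with AS above WW each time was not counted. The differences of AS, AW and WS from WW share the same WW arrays. By mean, Cel2 stood in the order WS, AS, AW and WW, and no pair of neighbours in this order passed the test.

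**Figure D1:**
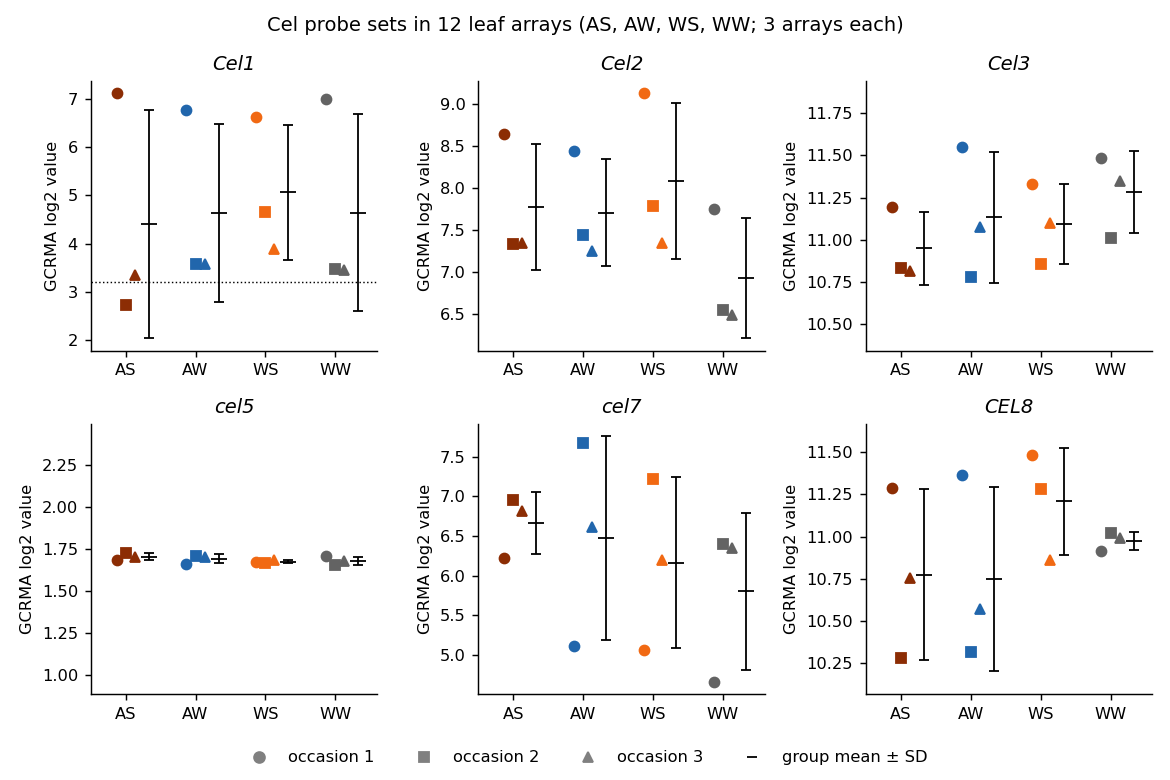
GCRMA log2 values (y axis, a separate scale for each probe set) of the 6 Cel probe sets in AS, AW, WS and WW leaves, with 1 point for each array, symbols for occasions, and bars for group means ± SD (n = 3). The dotted line in the Cel1 panel is the filter at 3.2. Cel2 had its lowest array of each occasion in WW, Cel1 stood at 6.63 to 7.12 on occasion 1 and at 2.73 to 4.67 on the others, and cel5 stayed at 1.66 to 1.72.

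cel7, measured by Les.3636.1.S1_at, belongs to the auxin-regulated endoglucanases of expanding tissue. Its values on occasions 1, 2 and 3 were 6.22, 6.95 and 6.82 in AS, 5.12, 7.68 and 6.62 in AW and 5.07, 7.23 and 6.20 in WS. In WW they were 4.66, 6.39 and 6.35, so that WW was the lowest group on occasions 1 and 2 and second lowest on occasion 3. Means were 6.66 ± 0.39 in AS, 6.47 ± 1.29 in AW, 6.16 ± 1.08 in WS and 5.80 ± 0.99 in WW (SD, n = 3 each), and all neighbours in this order overlapped.

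The Alethea effect, averaged over AS minus WS and AW minus WW, was 0.58 log2 units for cel7 (SE 0.22, 95% interval 0.09 to 1.08, adjusted p = 0.110). With Alethea, 5 of 6 pairs of arrays were higher. The share of all probe sets with 5 of 6 pairs on 1 side was not counted, here or for the members below. No Cel probe set passed for the Alethea effect, where limma called 8.18% of all probe sets. At an unadjusted p under 0.05, the effect was found for 2 of 5 Cel probe sets, cel7 and Cel2, against 31.9% of all. Rank Product gave cel7 an estimated false discovery rate of 0.0634 and called 0 of 5 Cel probe sets, against 198 higher and 173 lower among the 7779. The excess of 3′ over 5′ actin signal was 0.65 higher with Alethea on average (SD 0.41) and higher in 6 of 6 pairs, and its part in the cel7 values was not tested.

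By pair of groups, cel7 was higher in AW than in WW on each occasion, by 0.45, 1.28 and 0.27 log2 units (mean 0.67, adjusted p = 0.408). AS minus WS averaged 0.50 log2 units (adjusted p = 0.345), with 1.15, -0.28 and 0.62 by occasion, and it was 0.12 without the AS array of occasion 1 and 0.89 without occasion 2. Salt without Alethea gave 0.36 (WS minus WW, adjusted p = 0.717) and salt after Alethea 0.19 (AS minus AW, adjusted p = 0.992). Neither salt difference kept its sign over the 3 occasions, and WS minus WW was 0.13 without occasion 2 and 0.62 without occasion 3.

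Cel3, measured by Les.80.1.S1_at, encodes a membrane-anchored endoglucanase of the KORRIGAN class. It varied least among the tested members, with values of 11.20, 10.83 and 10.82 in AS, 11.55, 10.78 and 11.07 in AW and 11.33, 10.86 and 11.10 in WS on occasions 1, 2 and 3. In WW the values were 11.49, 11.01 and 11.35, and WW had the highest mean. Means were 10.95 ± 0.21 in AS, 11.13 ± 0.39 in AW, 11.09 ± 0.24 in WS and 11.28 ± 0.24 in WW (SD, n = 3 each).

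Differences of Cel3 were small and none passed. The salt effect, averaged over AS minus AW and WS minus WW, was -0.19 log2 units (SE 0.08, 95% interval -0.37 to -0.01, adjusted p = 0.340), with 5 of 6 pairs lower under salt. The Alethea effect was -0.15 log2 units (SE 0.08, adjusted p = 0.230), and again 5 of 6 pairs were lower. The excess of 3′ over 5′ actin signal was higher with Alethea in 6 of 6 pairs, and its part in the Cel3 values was not tested. WS was below WW on all 3 occasions, with differences of -0.16, -0.16 and -0.25 log2 units (mean -0.19, adjusted p = 0.566), and 17.5% of all probe sets were below 0 each time. The combined treatment gave AS minus WW values of -0.29, -0.18 and -0.53, with no test fitted and no share of all probe sets counted. AS minus AW was -0.19 (95% interval -0.44 to 0.07, adjusted p = 0.955) and AS minus WS was -0.15 (95% interval -0.40 to 0.11, adjusted p = 0.437).

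For the salt effect, 0 of 5 Cel probe sets were called by limma, against 0.0386% of all probe sets. Cel2 and Cel3 had an unadjusted p under 0.05, against 14.0% of all probe sets, and stood on opposite sides of 0. Cel2 was 0.61 log2 units higher with salt (SE 0.09, adjusted p = 0.0773), in 5 of 6 pairs. Rank Product gave it an estimated false discovery rate of 0.0612 and called 114 of all probe sets higher and 117 lower.

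CEL8, measured by Les.68.2.S1_a_at, encodes a secreted endoglucanase with a carbohydrate-binding domain at its end, and the suffix of its probe set marks probes shared by transcripts of 1 gene. Its values on occasions 1, 2 and 3 were 11.29, 10.28 and 10.76 in AS, 11.36, 10.32 and 10.57 in AW and 11.49, 11.28 and 10.86 in WS. In WW it lay at 10.91, 11.02 and 10.99, the narrowest range of the 4 groups. Means were 10.77 ± 0.51 in AS, 10.75 ± 0.55 in AW, 11.21 ± 0.32 in WS and 10.97 ± 0.06 in WW (SD, n = 3 each).

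The lower means of CEL8 were thus those of the Alethea groups, but no difference passed. Under salt, AS was below WS on each occasion, with differences of -0.20, -1.004 and -0.11 log2 units (mean -0.44, SE 0.23, adjusted p = 0.287), which 23.9% of all probe sets also were. Without occasion 2 the mean was -0.15. The Alethea effect was -0.33 log2 units (SE 0.17, 95% interval -0.71 to 0.05, adjusted p = 0.208), with 5 of 6 pairs lower. As said for cel7, the excess of 3′ over 5′ actin signal was higher with Alethea in 6 of 6 pairs. Its part in the CEL8 values was not tested. AW minus WW was 0.45 on occasion 1 and -0.70 and -0.42 on occasions 2 and 3, a mean of -0.22 (adjusted p = 0.687). Salt gave 0.24 log2 units in WS minus WW (95% interval -0.30 to 0.77, adjusted p = 0.767), with 0.57, 0.26 and -0.13 by occasion, and 0.02 in AS minus AW (95% interval -0.51 to 0.56, adjusted p = 0.999).

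Cel1, measured by Les.3667.1.S1_at, is a secreted endoglucanase known from abscission zones. Its values on occasions 1, 2 and 3 were 7.12, 2.73 and 3.35 in AS, 6.78, 3.58 and 3.57 in AW and 6.63, 4.67 and 3.89 in WS. In WW they were 7.001, 3.46 and 3.44. The arrays of occasion 1 stood apart in every group, and 1 array, AS on occasion 2, was below 3.2. Means were 4.40 ± 2.38 in AS, 4.64 ± 1.85 in AW, 5.06 ± 1.41 in WS and 4.64 ± 2.05 in WW (SD, n = 3 each), the widest SDs among the members tested.

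Between groups, AS minus WS was -0.66 log2 units for Cel1 (SE 0.35, 95% interval -1.47 to 0.15, adjusted p = 0.286), with 0.49, -1.93 and -0.54 by occasion. It rested largely on occasion 2, without which it was -0.023, and it ranged over -1.24 to -0.023 when arrays or occasions were left out. WS minus WW was 0.43 (adjusted p = 0.711), with -0.37, 1.20 and 0.45 by occasion. AW and WW did not differ detectably, at 0.00 log2 units with a 95% interval of -0.80 to 0.81. AS minus AW was -0.24 (95% interval -1.04 to 0.57, adjusted p = 0.988), with 0.35, -0.85 and -0.21 by occasion. The interval of each Cel1 difference was wider than those of the other members, and smaller changes of Cel1 were not detectable at this spread.

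The probe set of cel5, Les.3491.1.S1_at, lay between 1.66 and 1.72 in all 12 arrays, with an SD over arrays of 0.021. This gene is a further endoglucanase known from abscission and fruit. All its arrays were below 3.2, so it was not tested.

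**Figure D2:**
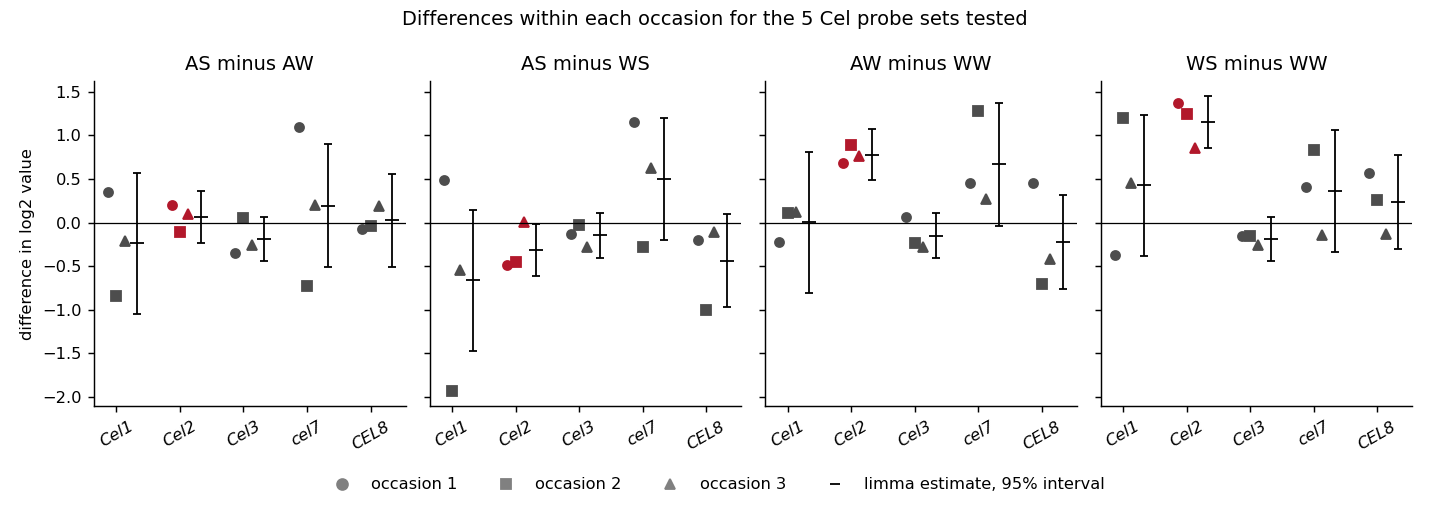
Differences in log2 value (y axis) between pairs of groups for the 5 Cel probe sets tested, with 1 point for each occasion and bars for the limma estimate and its 95% interval. Cel2, in red, was above 0 on all 3 occasions in AW minus WW (0.68 to 0.89) and WS minus WW (0.86 to 1.37) and near 0 in AS minus AW.

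The occasions were compared after their values had been seen. Every Cel probe set tested differed between occasion 1 and the mean of occasions 2 and 3, 4 of them higher and 1 lower on occasion 1, and limma called 52.1% of all probe sets in the same contrast, 27.4% higher and 24.7% lower. Cel1 was 3.30 log2 units higher on occasion 1 (SE 0.27, adjusted p = 2.24e-05), or 9.82-fold, with 6.63 to 7.12 against 2.73 to 4.67 on the later 2 occasions. Cel2 was 1.30 higher (SE 0.10, adjusted p = 1.55e-05) and Cel3 0.41 higher (SE 0.08, adjusted p = 0.00327). In the opposite direction, cel7 differed by -1.51 log2 units on occasion 1 (SE 0.23, adjusted p = 0.000708), with 4.66 to 6.22 against 6.20 to 7.68.

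CEL8 was 0.50 log2 units higher on occasion 1 (SE 0.18, adjusted p = 0.0398). This call was lost without any 1 of 8 arrays, which were WS on occasions 1 and 3 and all arrays of AW and AS, at adjusted p of 0.0533 to 0.158. Between occasions 2 and 3, no Cel probe set was called and none had an unadjusted p under 0.05, against 4.67% called and 26.4% unadjusted among all probe sets. The changes ran from -0.21 for Cel3 (adjusted p = 0.199) to 0.56 for cel7 (adjusted p = 0.217). For GAPDH, the 3′ probe set exceeded the 5′ one by 0.36 to 0.61 on occasion 1, 0.13 to 0.42 on occasion 2 and 0.12 to 0.26 on occasion 3. For actin the same measure averaged 1.01, 1.02 and 1.05 on occasions 1, 2 and 3. It ranged over 0.54 to 1.72, 0.54 to 1.53 and 0.82 to 1.27. The part of RNA quality in the occasion differences of the Cel probe sets was not tested.

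**Figure D3:**
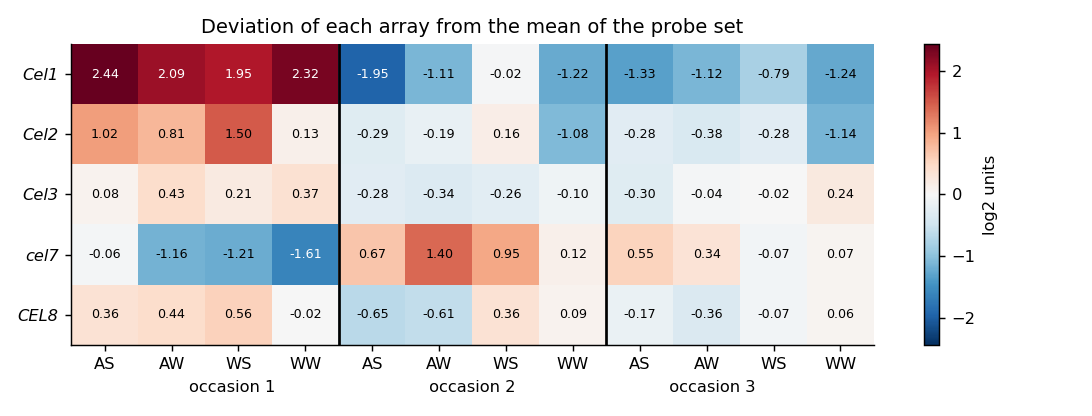
Deviation of each array from the mean of the probe set (colour and printed number, log2 units) for the 5 Cel probe sets tested, with arrays in columns by occasion. Cel1 and cel7 showed the split between occasion 1 and the others in opposite directions (contrasts of 3.30 and -1.51), while WW was the lowest Cel2 array on each occasion.

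In size, the difference of occasion 1 from the other two was larger than any difference between group means for each of the 5 members, which was not tested. Over the 3 occasions, Cel2 and cel7 had their lowest mean in WW, whereas Cel3 had its highest mean there. Cel1, Cel2 and CEL8 had their highest mean in WS and cel7 in AS. Levels are not set against each other between probe sets, since probes differ in their response.

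For each tested member, the probe sets with the most similar pattern were sought among 701 others with a gene symbol, by Pearson r over the 12 arrays. These correlations are descriptive, and all arrays share the occasion split. Cel1 was most like LOC544276 (r = 0.971) and PsbQ, a protein of the oxygen-evolving complex (r = 0.965), followed by LOC543937 (0.957). Cel2 was most like SAM1, an S-adenosylmethionine synthetase (0.896), the A-type cyclin CycA1 (0.867) and NMP1 (0.860). Cel3 was nearest to the calcium-dependent kinase CDPK1 (0.904) and to a pair of probe sets for the xyloglucan endotransglycosylase XTH16 (0.899 and 0.889). cel7 was nearest to TSI-1 (0.912), LOC543632 (0.911) and RSI-1, an auxin-inducible gene of lateral roots (0.909). CEL8 was nearest to the ethylene signalling protein EIN2 (0.918), LOC544050 (0.905) and LOC543930 (0.883).

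With the mean of each occasion removed, 0 of these 15 neighbours remained among the nearest 3 of the same member. Cel2 was then most like TBG3, a β-galactosidase of the cell wall (r = 0.893), the MAP kinase MAPK10 (0.882) and LOC544279 (0.833). TBG3 stood above WW by 1.04 log2 units in AS, 0.96 in AW and 1.05 in WS, against 0.84, 0.78 and 1.16 for Cel2. As TBG3 was picked for its likeness to Cel2 over these same arrays, the similar differences follow from that choice. None of the TBG3 differences that were tested passed (adjusted p of 0.297 for AW and 0.291 for WS). Cel3 was then nearest to PAP1 (0.910), the xyloglucan enzyme XET2 (0.881) and the farnesyl pyrophosphate synthase FPPS1 (0.843). cel7 was nearest to the superoxide dismutase SODCP.2 (0.871), the copper chaperone CCS (0.809) and TDR6 (0.788). For CEL8 they were OPT1 (0.915), LOC543883 (0.903) and the Pto-interacting kinase PTI1 (0.887), and for Cel1 fsm1 (0.814), chMDH (0.759) and AGAL (0.719).

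The Cel probe sets were set beside other wall enzymes chosen by gene symbol. These were expansins, which loosen walls without cutting them, xyloglucan endotransglycosylases, which cut and rejoin xyloglucan, β-galactosidases of the TBG family, and enzymes of pectin. The filter was passed by 10 of 13, 11 of 13, 7 of 7 and 1 of 7 of their probe sets. For WS against WW, limma called 0 of these 29, against 0.0386% of all probe sets, with 9 at an unadjusted p under 0.05, against 10.5% of all. Median changes in WS against WW were 0.36 log2 units for the 5 Cel probe sets, 0.05 for expansins, -0.32 for xyloglucan endotransglycosylases and 0.22 for β-galactosidases, against 0.00 for all probe sets.

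Within these lists, Cel2 had a higher value in WS minus WW than any of the 29 (1.16), followed by TBG2 at 1.11 (adjusted p = 0.420) and TBG3 at 1.05. At the other end, XTH16 lay at -1.19 on its lowest probe set (adjusted p = 0.307) and at -1.18 and -0.88 on its others. Below 0 were 9 of 11 xyloglucan endotransglycosylase probe sets. The probe sets of XTH16 count separately in this number, in the median and among those with an unadjusted p under 0.05. The pectin methylesterase PMEU1, the 1 pectin enzyme tested, was at -0.44 (adjusted p = 0.400). The highest and lowest expansins were EXPA4 at 0.34 and EXP1 at -0.28.

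For the Alethea effect, 3 of the 29 passed, a share near the 8.18% of all probe sets called. XTH3 rose by 1.15 log2 units (adjusted p = 0.0281) and tXET-B2 by 2.36 (adjusted p = 0.0412), and the expansin EXPA4 fell by 0.46 (adjusted p = 0.0443). The values of tXET-B2 ran from 2.68 to 8.08 over the arrays, partly below 3.2. The excess of 3′ over 5′ actin signal was higher with Alethea in 6 of 6 pairs, and its part in these changes was not tested. Without the occasion as a block, none of the 29 was called. For AW against WW none was called, the highest value being 2.81 for tXET-B2 (adjusted p = 0.335). The median interaction was -0.30 for expansins, -0.07 for xyloglucan endotransglycosylases and -0.51 for β-galactosidases, and PMEU1 lay at 0.32, against a median of -0.01 for all probe sets. The lowest β-galactosidase was TBG3 at -0.97, against -1.09 for Cel2, and none of the 29 passed.

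**Figure D4:**
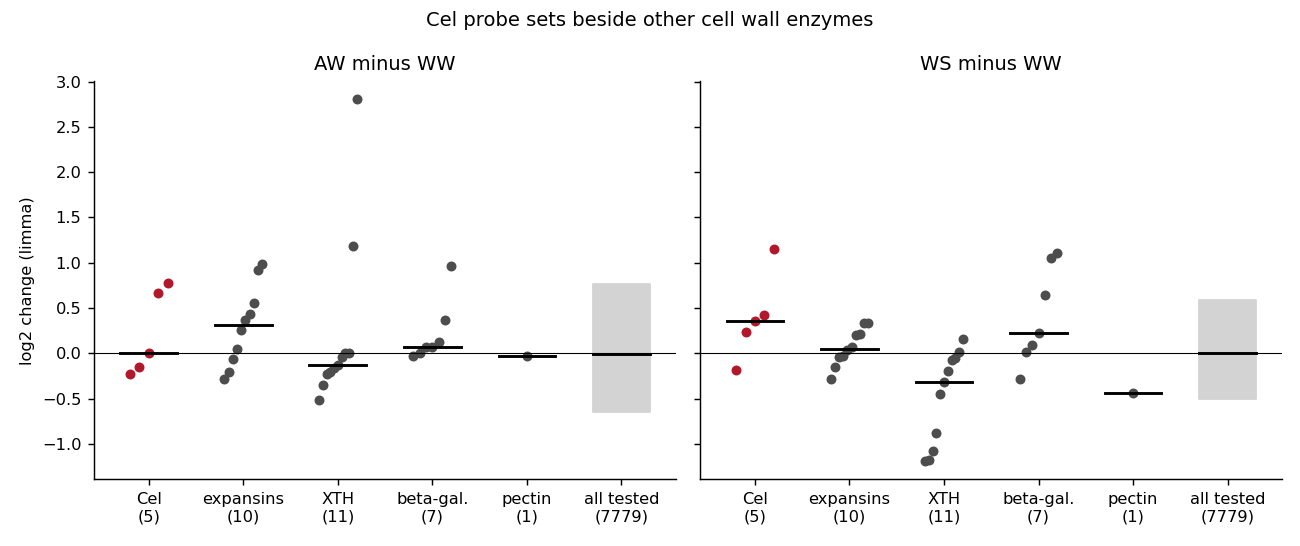
Log2 change from limma (y axis) in AW minus WW and WS minus WW for the tested probe sets of the Cel family (red) and of 4 lists of wall enzymes (grey), with bars for medians and the number of probe sets below each name. The grey band holds the central 95% of the 7779 probe sets tested, and Cel2 at 1.16 is the highest listed point in WS minus WW.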

How the data were processed

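RNA of 12 tomato leaf samples was hybridised to Affymetrix tomato arrays. The authors normalised the signals with GCRMA (version not given in the sources used here), and the deposited table holds log2 values, so background correction and probe summary are theirs. Probe sets with a mean above 3.2 in at least 1 of the 4 groups were kept. This is the filter rule of the study's methods, applied here anew to the deposited values, and it kept 7779 of 10209. The linear models of limma 3.58.1 (R 4.3.3) had 4 group terms and a block for the occasion (6 residual and 2.63 prior degrees of freedom), and calls were made at 0.05 after Benjamini-Hochberg adjustment. The replicate numbers in the sample titles were taken as the 3 repeat experiments of the study, a link that the titles do not state. Deviations from group means correlated at 0.44 to 0.88 in 18 pairs of arrays of 1 occasion and at -0.79 to 0.63 between occasions. Rank Product, with 1000 permutations and a false discovery rate of 0.05, was computed with pandas 2.3.3 and numpy 2.4.6 (Python 3.11.15), and matplotlib 3.10.9 drew the figures. The limma step was tested on simulated data for the averaged salt effect only. The simulated data held no occasion differences, so this does not check the calls reported for pairs of groups.

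The members and lists were chosen with earlier results of these data known. Every member was named, with the 3 most similar probe sets and, from each wall list, those called or otherwise the highest and lowest. Symbols came from the array annotation (1 symbol for 909 probe sets, 702 of them kept). Genes named only by a LOC symbol could not be placed in a list, and further endoglucanases without a Cel symbol were not looked for. The alternatives were other filters, scalings and fits, Rank Product, and leaving out each array or occasion.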

Additional observations from a re-analysis of the deposited data

How the results depend on the processing

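The rise of Cel2 in WS against WW kept its direction in 23 alternatives, with 1.04 to 1.31 log2 units, and stayed below the threshold in 4 of them. It was called with the filter at a mean above 5 (adjusted p = 0.0291), with arrays centred on their medians (0.0496), with quantile normalisation (0.0439) and with a trend in eBayes (0.0422). The count of Cel probe sets called, 1 as reported, was 0 without a filter (adjusted p = 0.0878) and 0 with only the 6 arrays of both groups (0.427). It was 0 with Rank Product (false discovery rate 0.0519) and 0 to 0 over the fits that left out an array or an occasion. Without the replicate block it was 0 (adjusted p = 0.99997). Among all probe sets, 0 were called without a filter, 0 with the 6 arrays, 0 without the block and 27 with Rank Product. The wall enzymes called for the Alethea effect numbered 0 without the replicate block, against 3 with it. For Cel2 in WS against WW, the SE was 0.57 without the block and 0.13 with it. Some of the other fits had fewer arrays or more probe sets, and the cause of these losses was not tested. No Cel probe set was called in any alternative of the other group contrasts.

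Some small differences changed sign. Cel1 in AW minus WW was -0.0090 after median centring and -0.015 after quantile normalisation, against 0.00. When arrays or occasions were left out, Cel1 ranged over -0.58 to 0.16 in AS minus AW, -0.061 to 0.12 in AW minus WW, -0.025 to 0.85 in WS minus WW, -1.35 to 0.029 for the interaction, -0.13 to 0.31 for salt and -0.29 to 0.34 between occasions 2 and 3. CEL8 ranged over -0.13 to 0.22, -0.56 to 0.016, -0.028 to 0.42, -0.48 to 0.053, -0.0020 to 0.23 and -0.21 to 0.076 in the same contrasts in that order. Cel2 in AS minus AW was -0.026 to 0.15, the Cel3 interaction -0.10 to 0.10, and cel7 -0.26 to 0.65 in AS minus AW and -0.60 to 0.52 for the interaction. None of these was called. The call of CEL8 on occasion 1 was also lost without a filter (adjusted p = 0.0614).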

Other observations

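Outside the rule, 1 probe set carried the symbol CELLULASE, Les.3664.1.S1_at. It lay at 8.47 to 9.08 log2 units on occasion 1, at 6.12 to 6.50 on occasion 2 and at 5.93 to 6.38 on occasion 3, and the arrays of occasion 1 did not overlap with the others. Occasion 1 was 2.51 log2 units above the mean of occasions 2 and 3 (SE 0.14, adjusted p = 4.02e-06, limma), a contrast in which 52.1% of all probe sets were called. Group means were 7.02 ± 1.26 in AS, 7.16 ± 1.27 in AW, 7.12 ± 1.71 in WS and 7.02 ± 1.57 in WW (SD, n = 3 each). No difference between groups was called for it, with adjusted p of 0.751 to 0.9999 over 7 contrasts.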
